A study of Mus musculus with 6 samples.

Results

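Pleiotrophin (Ptn, ENSMUSG00000029838) and midkine (Mdk, ENSMUSG00000027239) are the 2 members of one small family of secreted growth factors, and they were the 2 genes followed here of the 31053 listed in the count matrices. Both were chosen by name. The study had named both as markers of early endothelium in its sorted libraries, so their choice was not blind to these data. Their RNA was read in 4 libraries of sorted mouse lung cells and 2 libraries of whole mouse lungs, in endothelial cells (ECs) and mesenchymal cells defined by counts of other genes. An EC had at least 2 unique molecular identifiers (UMIs, 1 per captured transcript) of Pecam1 plus Cdh5 and at most 2 of Col1a1 plus Col3a1. A mesenchymal cell had at least 5 UMIs of Col1a1 plus Col3a1 and 0 of Pecam1 plus Cdh5. The comparison asked at which stages each ligand was made, by which cells, and how the endothelial level compared with that of genes that mark mesenchyme.

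The 4 sorted libraries came from Cxcl12DsRed/+ lungs, one for each of embryonic days E13.5, E15.5 and also E18.5, and one for postnatal day P8, in which a red reporter marks cells that use the Cxcl12 locus. Per the study, 2 to 4 lungs were pooled for a sorted library, and CD45 and EpCAM cells were removed. Its methods say that reporter-positive cells with and without CD31 were collected, while its results describe the sequenced cells as CD31-positive. Which fraction the mesenchymal cells of these libraries came from is not stated. The share of each cell type depended on the sort. The whole-lung libraries were made at E18.5 from lungs labelled heterozygous control, Cxcl12DsRed/+, and lungs labelled homozygous null, Cxcl12DsRed/DsRed. Each condition had 1 library, so no difference between conditions has a replicate check, and intervals below are exact 95% intervals that cover counting error only.

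Pleiotrophin and midkine are heparin-binding proteins with a shared fold. They bind the receptor phosphatase Ptprz1, low-density lipoprotein receptor-related proteins, syndecans, nucleolin and integrins, and act on cell growth, migration and vessel formation. Midkine was first found as a gene induced by retinoic acid, and both are made widely in embryonic organs and little in most adult ones. The kinship shows in their coding sequences, printed here because reads of 2 alike genes could be confused. The lines give 60 bases of each coding sequence from GENCODE M21 on GRCm38, read 5′ to 3′ on the minus strand, with capitals for the 48 bases (80%) that are identical between them.
Ptn: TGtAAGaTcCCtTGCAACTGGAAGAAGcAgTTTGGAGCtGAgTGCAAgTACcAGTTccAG
Mdk: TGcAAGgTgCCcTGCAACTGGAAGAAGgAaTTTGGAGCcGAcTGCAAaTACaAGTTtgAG
The Ptn stretch is coding bases 253 to 312 of 504 in Ptn-201 and lies in exons 3 and 4 of 5, spanning chr6:36741417-36743363. The Mdk stretch is coding bases 199 to 258 of 420 in Mdk-201, also in exons 3 and 4 of 5, spanning chr2:91930957-91931132. The longest identical run was 15 bases. The genes as annotated lie at chr6:36714929-36810220 (2 transcripts) and chr2:91929805-91932297 (4 transcripts), and 0 other genes overlap either one. In the last 300 bases of their transcripts, where this 3′ assay reads, 0 genes shared a 60-base stretch with either, and the pair shared 0 stretches of 20 bases.

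The libraries held 8845 to 13098 cell barcodes and 63746333 to 117522172 UMIs, and the gates took 161 to 9024 ECs and 59 to 11122 mesenchymal cells (the plot of levels by library gives both for each). The E13.5 library had few ECs (161) and the P8 library few mesenchymal cells (59). In ECs, 15 endothelial reference genes that the gate did not use summed to 6285 to 12991 CPM (UMIs scaled to a total of 1000000), and 25 mesenchymal reference genes to 98.2 to 383 CPM. Col5a2 was the highest of the 25 in the ECs of each sorted library, at 53.1 to 147 CPM. In mesenchymal cells those 25 genes summed to 5339.7 to 16221 CPM. Genes of immune cells (6 listed) summed to 3.14 to 40.7 CPM in sorted ECs. In ECs of the unsorted lungs they summed to 645 and 339 CPM in the libraries labelled control and null. Between libraries, 20 to 54 barcodes were shared, and 140 between the 2 whole-lung libraries. Cxcl12 itself went against the whole-lung labels: ECs had 4.44 CPM in the library labelled control and 534 CPM in the library labelled null, and the submitters' names for the matrices also give the opposite genotypes, so those libraries are named only by their labels.

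Mdk was lower in ECs at each later stage. Its level was 630.4 CPM at E13.5 (585 to 678; 713 UMIs in 161 cells), 309 CPM at E15.5 (306 to 313), 82.95 CPM at E18.5 (80.6 to 85.3) and 9.67 CPM at P8 (8.91 to 10.5), and no neighbouring intervals overlapped. On the scale of log2(CPM + 0.5), the steps were -1.03, -1.89 and -3.04. Levels differed between EC populations (given below), and the part of cell makeup in the endothelial steps of either ligand was not tested. A gene counted as past the 2-fold line only where it had at least 50 CPM on one side, and 2.11%, 4.3% and 3.78% of such genes were lower by 2-fold or more in those 3 steps. From E13.5 to P8 the Mdk difference was -5.95, and 5 of 3898 genes, Mdk counted, had a value as low or lower, where 9.21% were lower by 2-fold or more. ECs of the unsorted E18.5 lungs had 60.6 CPM (56.9 to 64.5) in the library labelled control, below the sorted level of that stage, and 81.0 CPM (77.7 to 84.4) in the library labelled null, whose interval overlapped the sorted one.

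The share of ECs with at least 1 Mdk UMI followed the same order. After thinning every cell to 2000 UMIs it was 71.1%, 40.9%, 12.1% and 1.70% from E13.5 to P8, and unthinned it was 90.7%, 75.6%, 23.2% and 4.64%, at median depths of 6482, 8462, 5653.5 and 5654 UMIs. In the unsorted lungs the thinned share was 9.99% and 13.3% of ECs (unthinned 24.3% and 32.3%). As a background, cells of the immune clusters in those lungs had thinned shares of 3.33% and 4.68% (unthinned 22.0% and 18.05%, median depths 16304 and 16139). The P8 share was below those immune shares, which come from whole lungs and were not measured in the sorted P8 library.

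Ptn was the lower of the pair in ECs through E18.5. Its level was 180.4 CPM at E13.5 (156 to 207), 14.4 CPM at E15.5 (13.6 to 15.2), 3.35 CPM at E18.5 (2.90 to 3.86) and 14.4 CPM at P8 (13.4 to 15.4). The order was therefore E13.5 first, E15.5 and P8 with overlapping intervals, and E18.5 last. The steps on log2(CPM + 0.5) were -3.60, -1.95 and 1.95, and only the first involved a level of 50 CPM or more. With a pseudocount of 5 CPM in place of 0.5 the last 2 steps were -1.22 and 1.21. ECs of unsorted lungs had 2.28 CPM (38 UMIs) and 3.08 CPM (87 UMIs). Thinned shares of ECs with a Ptn UMI were 22.0%, 2.81%, 0.405% and 1.91% in the sorted libraries (unthinned 54.0%, 10.4%, 1.39% and 6.39%). They were 0.289% (0.0938 to 0.672) and 0.747% (0.457 to 1.15) in the unsorted ones. Their immune cells, taken as background, had 0.499% (0.103 to 1.45) and 1.36% (0.623 to 2.57). The intervals overlapped in both libraries, so the Ptn share in unsorted ECs could not be told apart from that background. The sorted libraries have no such background of their own.

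The E13.5 endothelial Ptn level leaned on 1 cell. That EC held 73 of the 204 Ptn UMIs (35.8%), and 14 Dcn UMIs where the other ECs averaged 0.131. Its 25 mesenchymal reference genes summed to 42 UMIs against a mean of 2.44 in the others, and its endothelial reference genes to 45 against 51.2. These counts are not scaled for depth, and the cell had 12064 UMIs in all where the median EC had 6482. Without it Ptn stood at 117 CPM and the step to E15.5 was -2.98, while Mdk stood at 618 CPM. With the stricter gate of at least 5 Pecam1 plus Cdh5 UMIs and 0 collagen UMIs the step was -3.05.

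At the 3 embryonic stages both ligands were higher in mesenchymal cells than in ECs, Ptn by more. Ptn stood at 3218 CPM at E13.5 (3206 to 3229), and at 2183, 464 (436 to 494) and 12.98 CPM at the 3 later stages, the last value (4.76 to 28.2) from 6 UMIs in 3 of 59 cells. The steps were -0.56, -2.23 and -5.11. Mdk stood at 1479.7, 1070.1, 366 (340.6 to 392.3) and 1118 CPM (1024 to 1219), with steps of -0.47, -1.55 and 1.61. Thus Ptn was lower at each later stage, while Mdk had its lowest level at E18.5. Of the genes compared, 3.86%, 2.22% and 5.64% were lower by 2-fold or more in the 3 steps, and 8.68% were higher by 2-fold or more in the last one. After thinning, 82.4%, 69.2%, 29.7% and 3.39% of mesenchymal cells had a Ptn UMI and 92.0%, 83.1%, 46.1% and 83.1% had a Mdk UMI. Unthinned, the Ptn shares were 94.7%, 82.4%, 39.7% and 5.08%.

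The mesenchymal cells also differed in kind between the stages. Marker genes of smooth muscle summed to 2919, 6255, 8554 and 9995 CPM from E13.5 to P8, those of alveolar fibroblasts to 314, 257, 1703 and 5332 CPM, and those of adventitial fibroblasts to 1087, 3267, 4062 and 1728 CPM. Dcn, an adventitial fibroblast gene, was at 525, 1580.5, 1415 and 4.33 CPM, while Dpt, of the same list, was at 3.23, 80.7, 311 and 536 CPM. The part of cell types in the mesenchymal steps was not tested, and levels of unsorted mesenchyme differed from the sorted ones at the same stage. There Ptn stood at 71.5 and 263 CPM and Mdk at 456 and 454 CPM in the libraries labelled control and null.

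**Figure D1:**
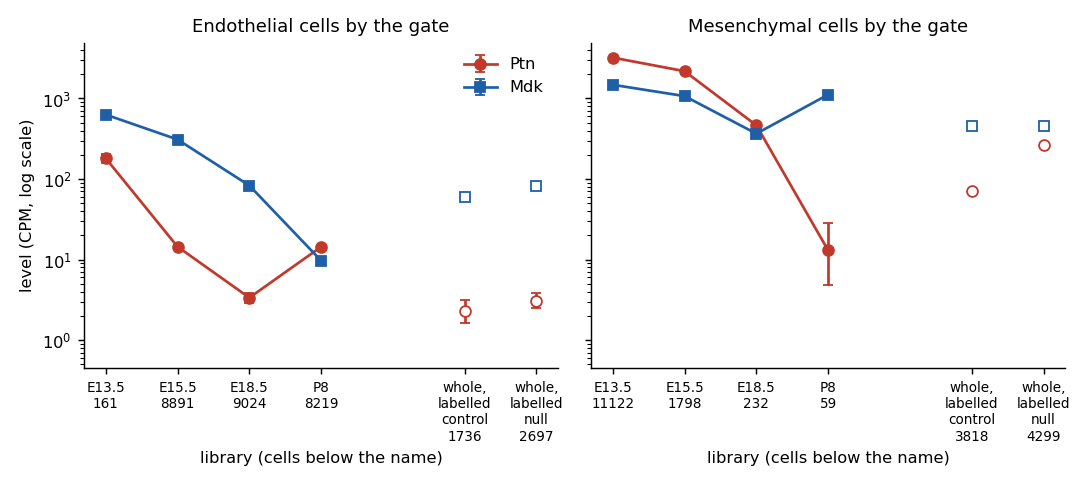
Levels of Ptn (circles) and Mdk (squares) in CPM on a log axis, in ECs (left) and mesenchymal cells (right) of each library, with exact 95% Poisson intervals; filled symbols are sorted and open ones whole-lung libraries, and the number of cells stands below each name. Mdk goes from 630.4 CPM at E13.5 to 9.67 CPM at P8 in ECs, while in mesenchyme Ptn goes from 3218 to 12.98 CPM and Mdk ends at 1118 CPM.

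Because mesenchymal RNA can reach ECs as free RNA or in doublets, the endothelial level was set against the mesenchymal level of the same library, gene by gene. At E13.5 ECs had 5.61% of the mesenchymal Ptn level and 42.6% of the mesenchymal Mdk level. The 15 of the 25 mesenchymal reference genes with at least 50 CPM in mesenchyme had a median of 4.34%, from 2.07% for Twist1 to 50.2% for Col5a2, and the next below Col5a2 was Cdh11 at 6.44%. So 4 reference genes (Mfap4, Dcn, Cdh11 and Col5a2) were at or above Ptn and 1 (Col5a2) above Mdk. A share equal to that median would have given ECs 139.6 CPM of Ptn, 77.4% of their level, and 64.2 CPM of Mdk, 10.2% of their level. Without the cell of 73 Ptn UMIs, Ptn was at 3.64% beside a reference median of 3.56%, and 6 reference genes were at or above it.

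At E15.5 the difference between the pair was wider. Ptn was at 0.661% and Mdk at 28.9%, beside a reference median of 0.372% over 17 genes. The reference genes at or above Ptn numbered 7, and Col5a2, at 38.3%, was the 1 above Mdk, with Mfap5 next at 9.32%. The median share would have given 56.3% of the endothelial Ptn level and 1.29% of the endothelial Mdk level. At E18.5 Ptn was at 0.723% and Mdk at 22.7%, beside a median of 0.304% over 18 genes, and 0 of those were above Mdk. The median share corresponded there to 42.1% of the Ptn level and 1.34% of the Mdk level. On the log2 scale endothelial over mesenchymal Ptn was -4.15, -7.19 and -6.91 at the 3 embryonic stages and Mdk was -1.23, -1.79 and -2.13, where 5.71%, 8.14% and 8.49% of genes were at least 4-fold lower in ECs. The E13.5 value of Ptn became -5.03 with the stricter gates and -4.77 without that 1 cell.

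At P8 the pair changed places. ECs had 14.4 CPM of Ptn and mesenchyme 12.98 CPM, a share of 111% with an interval that spans equality (log2 0.14, -0.98 to 1.60). The reference median was 0.151% over 17 genes and the highest was Col5a2 at 37.8%, so 0 of them were at or above Ptn. The mesenchymal level behind the Ptn share rests on 6 UMIs, and those 59 cells held 2 Dcn UMIs and 0 Lum UMIs. Other genes of the adventitial fibroblast list were present in them, with Dpt at 536 CPM and Ogn at 316 CPM. The P8 ECs had 0 UMIs of Dcn and 0 of Lum. Ptn from mesenchymal cells that the P8 gate lacks cannot be judged from this share. Of the reference genes that the P8 mesenchymal cells carried, Mfap4 had 318 UMIs in the 8219 ECs of that library, Tcf21 189 and Col1a2 110, each below 1% of its mesenchymal level. Mdk was at 0.865% of its mesenchymal level (log2 -6.78, with 9.32% of genes at least 4-fold lower in ECs), and the median share corresponded to 17.5% of the 9.67 CPM in ECs.

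In the unsorted E18.5 lungs Ptn was at 3.19% and 1.17% of the mesenchymal level in the libraries labelled control and null, beside medians of 0.864% and 1.12%. Mdk was at 13.3% and 17.8%, below Col5a2 and above the other reference genes, the next of which was Col5a1 at 7.63% and 4.38%. The median share would have given 27.1% and 95.4% of the endothelial Ptn level, and 6.50% and 6.28% of the Mdk level. Col5a2 kept 14.7% to 50.2% of its mesenchymal level in the ECs of all 6 libraries. How much of the endothelial RNA came from mesenchymal cells was not tested beyond these values.

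**Figure D2:**
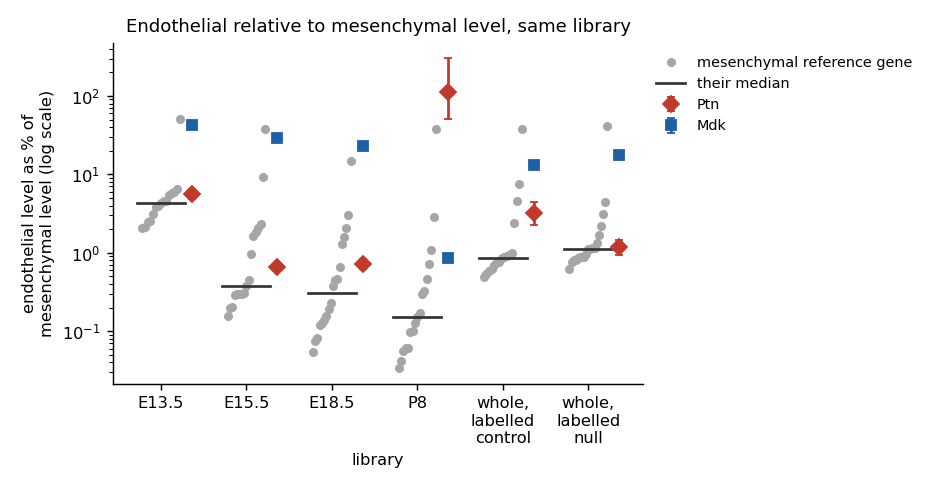
Endothelial level as a percentage of the mesenchymal level of the same library, on a log axis. Grey points are mesenchymal reference genes, sorted by value, black bars their medians, and the diamond and square are Ptn and Mdk with 95% intervals. Mdk lies far above the medians in the libraries other than P8. Ptn lies among the grey points except at P8, where it reaches 111% beside 6 mesenchymal UMIs. The single high grey point is Col5a2.

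The same was asked by dividing cells with at least 2 Pecam1 plus Cdh5 UMIs by their collagen UMIs, without the upper limit of the gate. At E15.5 Ptn was at 13.7 CPM in the 7604 cells with 0 collagen UMIs, 29.7 CPM in those with 2 and 1053 CPM in the 338 cells with 10 or more. Mdk was at 307, 367 and 592 CPM in the same cells, a smaller move than that of Ptn. The 25 reference genes summed to 173, 663 and 5725 CPM there. By the gates, E15.5 mesenchyme and ECs had 2183 and 14.4 CPM of Ptn, and 1070 and 309 CPM of Mdk. Any mixing of the 2 kinds of cell would thus move Ptn more, and the contrast is not separate support beside the shares above. At E13.5 Ptn was at 112 CPM with 0 collagen UMIs and 1930 CPM with 10 or more, and Mdk at 655 and 1052 CPM. At E18.5 Ptn was at 3.20 and 245 CPM and Mdk at 82.6 and 275 CPM.

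At P8 the roles were again exchanged. By the gates, P8 mesenchyme had 12.98 CPM of Ptn and 1118 CPM of Mdk. Any mixing of the 2 kinds of cell would thus move Mdk more, and this contrast is not separate support either. Ptn was at 14.3 CPM in the 8141 cells with 0 collagen UMIs and 33.5 CPM (12.3 to 72.9) in the 12 cells with 2, and at 34.4 CPM with 10 or more. Mdk was at 9.30 CPM with 0, 21.9 CPM with 1 and 404 CPM with 10 or more. Nearly all of the ECs had 0 collagen UMIs at this stage, and the level of each ligand in them was within the interval of the whole gate.

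**Figure D3:**
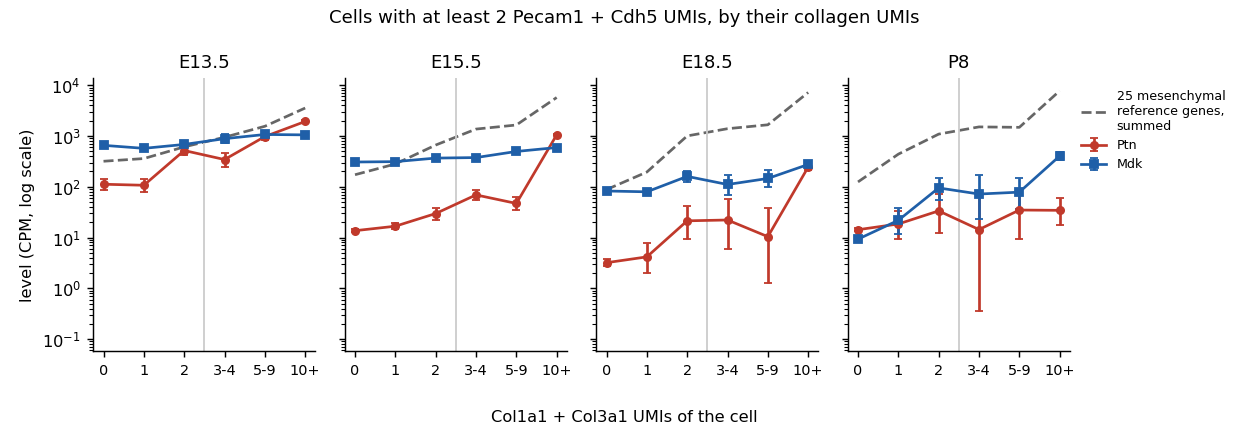
Levels of Ptn (circles) and Mdk (squares) in CPM on a log axis, with exact 95% Poisson intervals, in cells of the sorted libraries with at least 2 Pecam1 plus Cdh5 UMIs, by their Col1a1 plus Col3a1 UMIs; the dashed line is the sum of the 25 mesenchymal reference genes and the vertical line the upper limit of the EC gate. At E15.5 Ptn goes from 13.7 to 1053 CPM with collagen, and Mdk from 307 to 592 CPM. In the E15.5 ECs of the gate Col5a2 gives 126 of the 198 CPM of the dashed sum.

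Among the named EC populations, Mdk was highest at E15.5 and P8 in the arterial population maEC1-like, named from a list of 7 markers that includes Gkn3 and Gja5 and 5 genes of matrix proteins. At E13.5 that population of 52 cells had 867 CPM (768 to 974), and the other clusters had 632 and 465 CPM. At E15.5 it had 505 CPM (487 to 523), while the other arterial population, maEC2-like, had 372 CPM, proliferating EC-like cells 232 CPM and Fabp4 EC-like cells 70.9 CPM (63.2 to 79.2). An unnamed cluster of 160 cells closest to proliferating ECs and one of 75 cells closest to venous ECs were above it, at 547 and 598 CPM. At E18.5 an unnamed cluster of 669 cells led by S100a4 and Pi16 and closest to maEC1 had 264 CPM, maEC2-like cells had 131 CPM and maEC1-like cells 98.5 CPM. The mesenchymal reference genes summed to 139.7 CPM in the first of these and to 705 CPM in the last. The general capillary (gCap-like) and aerocyte (aCap-like) cells of that stage had 22.1 CPM (19.4 to 25.05) and 15.3 CPM (12.7 to 18.2).

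At P8 maEC1-like cells had 73.1 CPM of Mdk (63.5 to 83.8) and 29.5% of them had a UMI (10.9% thinned). The maEC2-like, gCap-like and aCap-like cells had 5.52, 5.82 and 4.58 CPM, so the maEC1-like interval was clear of theirs. Unnamed P8 clusters are left out of this comparison. They include one of 1219 cells closest to maEC2 and those of 1448 and 1405 cells closest to gCap. The 25 mesenchymal reference genes stood at 803 CPM in that population and at 41.5 to 87.4 CPM in the other 4 named ones. Over all P8 ECs Col5a2 alone gave 107 of the 130 CPM of this sum, which is not split by gene within populations. The part of mesenchymal RNA in the P8 arterial Mdk was not tested. In the unsorted lungs maEC1-like was the only named arterial population, with 1 marker of its list among its 10 leading genes. Whether it also holds maEC2 cells was not tested. The maEC1-like cells there had 231 and 225 CPM, gCap-like cells 57.04 and 57.9 CPM and aCap-like cells 28.5 and 31.3 CPM. The order was the same in both libraries. Immune cells of those libraries had 25.7 and 24.4 CPM, so the aCap-like values were near that background.

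The named populations had the same order for Ptn as for Mdk at E15.5, and another order later. At E15.5 maEC1-like cells had 29.8 CPM of Ptn (25.6 to 34.5), maEC2-like cells 15.6 CPM, proliferating EC-like cells 10.2 CPM and Fabp4 EC-like cells 4.98 CPM. The unnamed clusters of 75 and 160 cells were above them, at 123 and 61.2 CPM, and their mesenchymal reference genes summed to 984 and 626 CPM. At E18.5 the Fabp4 EC-like cells had 27.5 CPM, from 57 UMIs in 14 of 275 cells with 17 of them in 1 cell, and maEC1-like cells had 14.7 CPM (9.41 to 21.8). The gCap-like, maEC2-like and aCap-like cells were at 1.26, 0.964 and 0.366 CPM. At P8 the highest named population was proliferating EC-like, at 64.6 CPM (57.1 to 72.8), with a UMI in 118 of 350 cells and at most 10 in 1 cell. The aCap-like cells had 11.3 CPM (9.45 to 13.4), maEC1-like 9.94 CPM, gCap-like 7.60 CPM and maEC2-like 2.34 CPM (1.37 to 3.75). Unnamed P8 clusters are left out of this order as well.

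**Figure D4:**
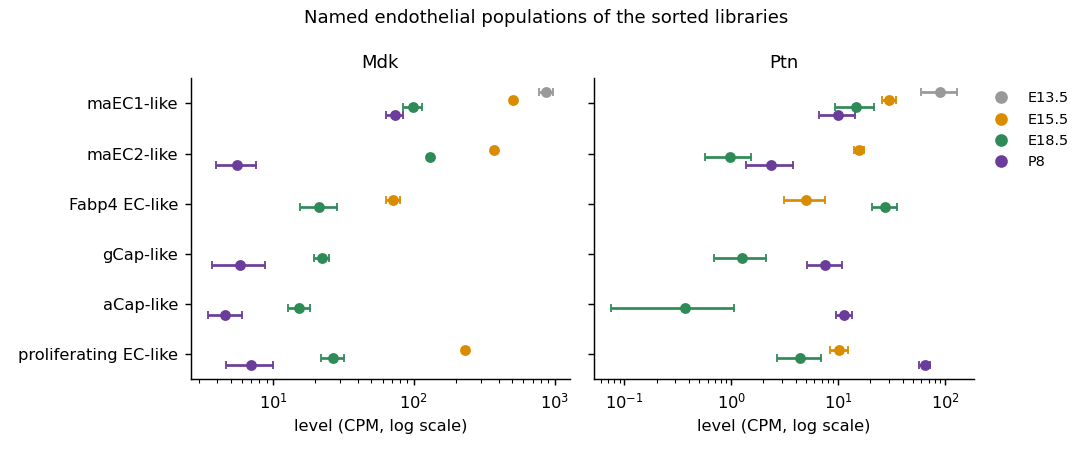
Levels of Mdk (left) and Ptn (right) in CPM on a log axis in the named endothelial populations of the sorted libraries, coloured by stage, with exact 95% Poisson intervals. Mdk at P8 is at 73.1 CPM in maEC1-like cells and below 10 CPM in the others, while Ptn at P8 is at 64.6 CPM in proliferating EC-like cells.

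A call made without clusters gave the same P8 pattern. It uses marker genes of the proliferating EC-like name in the same library, so it is not separate support. ECs with at least 2 UMIs of the cell-cycle genes Mki67 plus Top2a had 53.5 CPM of Ptn (47.9 to 59.6; 473 cells), and ECs with 0 had 9.01 CPM (8.21 to 9.86; 7461 cells), a log2 difference of 2.51. The mesenchymal reference genes stood at 73.3 and 138 CPM in those cells, lower in the cycling ones. Over all P8 ECs Col5a2 alone gave 107 of the 130 CPM of that sum, so it mostly reads this 1 gene. At E15.5 Ptn did not differ beyond counting error (14.6 and 14.8 CPM), and at E18.5 it was at 5.94 and 3.09 CPM. The E13.5 values were 326 and 123 CPM, and 114 CPM in cycling ECs without the cell of 73 Ptn UMIs. Mdk was lower in cycling ECs at E15.5 (268 against 334 CPM) and E18.5 (35.3 against 89.0 CPM), and in both unsorted libraries (log2 -1.23 and -1.17).

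In mesenchyme Ptn went the other way in the sorted embryonic libraries. Cycling mesenchymal cells had 2098 CPM of Ptn and the others 4150 CPM at E13.5, 1329 and 2685 CPM at E15.5, and 293 and 518 CPM at E18.5. Mdk differed less, with 1249 and 1669 CPM, 925 and 1156 CPM, and 328 and 368 CPM at the same stages. In the unsorted lungs cycling mesenchymal cells had more Ptn, by 1.00 and 0.34 on the log2 scale in the libraries labelled control and null.

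Across mesenchymal clusters Ptn varied far more than Mdk. At E13.5 Ptn was at 9752 CPM in 859 adventitial fibroblast-like cells led by Ecm1 and Dcn, and it was at 549 CPM in smooth muscle-like cells and 386 CPM in an unnamed cluster led by Fhdc1 and Entpd1. Mdk was at 1962, 1036 and 953 CPM in those 3 clusters. At E15.5 Ptn was at 4138 CPM in cartilage-like cells and 3608 CPM in adventitial fibroblast-like cells, with Mdk at 1278 and 857 CPM. The lowest E15.5 cluster, closest to smooth muscle, had 60.3 CPM of Ptn and 880.1 CPM of Mdk. At E18.5, 48 sorted cells led by Col5a3, Ren1 and Msln had 997 CPM of Ptn beside 5207 CPM of Dcn, smooth muscle-like cells had 172 CPM, and 24 cells led by Smpx and Egfem1 had 0 Ptn UMIs and 642 CPM of Mdk.

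In the unsorted lungs mesenchyme was the leading class for both ligands. By clusters, mesenchymal cells had 74.0 and 277 CPM of Ptn in the libraries labelled control and null, epithelial cells 7.98 and 18.9 CPM, immune cells 3.78 and 9.35 CPM and ECs 2.52 and 8.48 CPM. For Mdk the levels were 498 and 482 CPM in mesenchyme, 79.8 and 70.1 CPM in epithelium, 74.9 and 91.3 CPM in ECs and 25.7 and 24.4 CPM in immune cells. In these raw counts the order of the epithelial and endothelial Mdk levels differed between the libraries. The endothelial clusters also held cells with collagen UMIs that the gate leaves out, and in the library labelled null their Ptn of 8.48 CPM compares with 3.08 CPM in the gate, at 433 and 238 CPM of the 25 mesenchymal reference genes.

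The 2 ligands led in different mesenchymal clusters. Ptn was highest in an unnamed cluster led by Upk3b, Dcn and Tnxb, at 893 and 1384 CPM (175 and 601 cells). Next came, in an order that differed between the libraries, neural crest or glia-like cells, at 381 and 345 CPM, proliferating mesenchyme-like cells, at 153 and 389 CPM, and an unnamed cluster led by Igfbp2 and Dner, at 179 and 327 CPM. Pericyte-like cells had 30.4 and 69.6 CPM, and smooth muscle-like cells 4.77 and 8.54 CPM. In the clusters led by Cpne7 and Stc1 and by Lnx1 and Wif1, both closest to myofibroblasts, Ptn was at 1.46 and 13.5 CPM and at 1.27 and 5.58 CPM. Those led by Cpne7 and Stc1 had the highest Mdk of the named or described clusters, at 809.7 and 901 CPM, and those led by Lnx1 and Wif1 had 511 and 530 CPM.

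The leading genes of that cluster include Upk3b, a mesothelial gene, and Dcn, a fibroblast gene, so all mesenchymal cells of the gate were divided by those 2 kinds of marker. Mesenchymal cells with at least 3 Dcn plus Lum UMIs and 0 Upk3b plus Msln UMIs had 1038 CPM of Ptn in the library labelled control (977 to 1102) and 1134 CPM in the library labelled null (1101 to 1169). Cells with at least 2 Upk3b plus Msln UMIs and at most 2 Dcn plus Lum UMIs had 25.6 CPM (17.2 to 36.8) and 2.13 CPM (1 UMI). Mdk was at 647 and 543 CPM in the first cells and 237 and 221 CPM in the second.

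**Figure D5:**
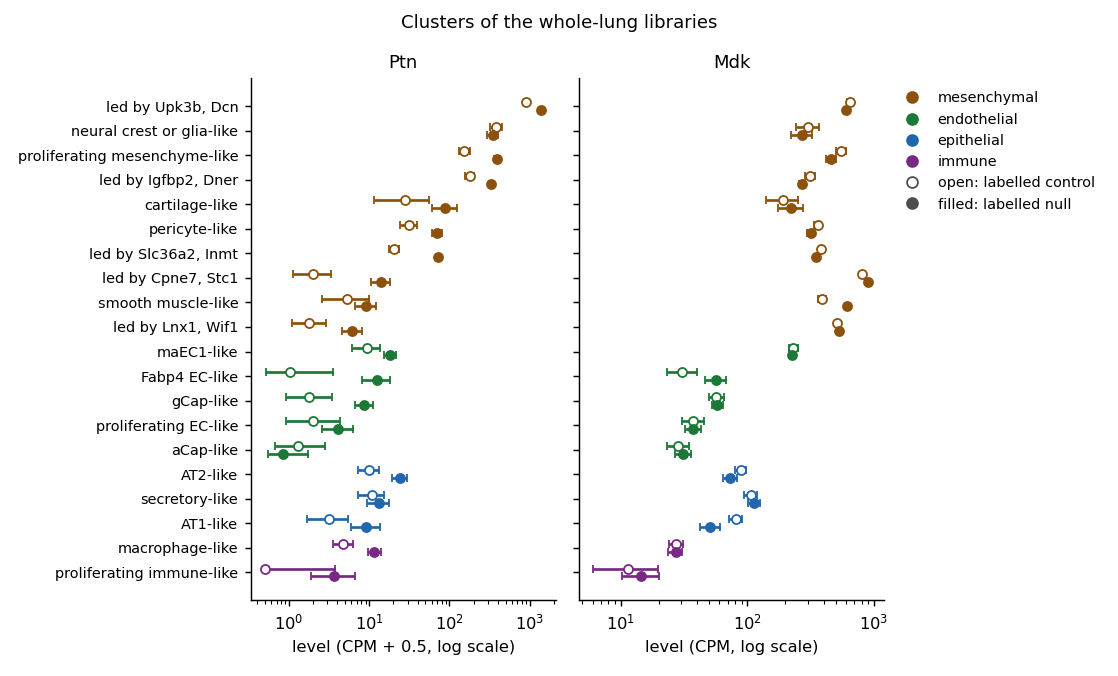
Levels of Ptn (left, CPM + 0.5) and Mdk (right, CPM) on log axes in clusters of the whole-lung libraries with at least 20 cells, named or given by 2 leading genes, with exact 95% Poisson intervals; open symbols are the library labelled control and filled ones the library labelled null. Mesenchymal clusters span 1.27 to 1384 CPM of Ptn and 189 to 901 CPM of Mdk.

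Between the 2 whole-lung libraries Ptn differed in mesenchyme, while the interval of the Mdk difference included 0. Ptn was at 71.5 CPM (68.6 to 74.4) in the library labelled control and 263 CPM (258 to 268) in the library labelled null, a log2 difference of 1.87 (1.81 to 1.94), whose direction between the genotypes cannot be read because Cxcl12 goes against the labels. Of the 3199 genes compared, 0.688% were at least 2-fold higher in the library labelled null, and 3193 had a log2 difference at or below that of Ptn. Mdk differed by -0.01 (-0.04 to 0.03) over the whole gate. In the 8 mesenchymal clusters with at least 50 cells in both libraries its difference ran from -0.26 to 0.65. It was higher in the library labelled null in 3 of the 8. With 1 lung library per label, a difference between lungs, dissections and genotypes cannot be told apart.

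Cell makeup moved with the Ptn difference. The cells with Dcn plus Lum of at least 3 and no mesothelial UMI were 3.20% of the mesenchymal gate in the library labelled control and 7.89% in the library labelled null, and they held 46.5% and 40.6% of the Ptn UMIs of the gate. Dcn itself was at 54.5 and 189 CPM. In the mesenchymal cells with 0 UMIs of all 4 marker genes, Ptn was at 37.1 and 145 CPM, and these cells held 45.5% and 43.8% of the Ptn UMIs. Over the 8 mesenchymal clusters with at least 50 cells in both libraries, each given the same weight, Ptn was at 160.3 and 284 CPM, a log2 difference of 0.82, and it was higher in the library labelled null in 8 of 8, by 0.63 to 2.83. In the smaller neural crest or glia-like cluster it was not (381 and 345 CPM). Immune cells had 3.78 and 9.35 CPM, and ECs of the gate 2.28 and 3.08 CPM (log2 difference 0.37, -0.13 to 1.03). The part of makeup and free RNA in the difference was not tested.

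The study also deposited estimated counts of these 2 libraries after removal of ambient RNA with SoupX, which took away 40.3% of all UMIs in the library labelled control and 18.5% in the library labelled null. In ECs by the gate those values left 0.0758 and 0.356 CPM of Ptn, and 29.4 and 50.01 CPM of Mdk. In mesenchyme they left 99.1 and 302 CPM of Ptn (log2 1.60) and 557 and 487 CPM of Mdk. In immune cells both ligands were at 0 CPM after it in both libraries. Epithelial clusters kept 0 and 23.8 CPM of Mdk and endothelial clusters 42.6 and 58.6 CPM, above epithelium in both libraries. By clusters, endothelial cells kept 0 and 4.70 CPM of Ptn in the libraries labelled control and null, and in the latter maEC1-like cells kept 12.7 CPM and gCap-like cells 4.83 CPM. Of Mdk, maEC1-like cells kept 209 and 208 CPM, gCap-like cells 16.8 and 14.0 CPM and aCap-like cells 0.390 and 1.75 CPM.

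The receptors and binding partners were taken as a list of 23 genes, 12 of which reached 50 CPM in ECs or mesenchymal cells of a sorted library (7 in ECs, 10 in mesenchyme). Ptprz1, the receptor phosphatase both ligands bind, was at 0.0490 to 1.77 CPM in sorted ECs and reached 66.2 CPM in E15.5 mesenchyme, from 8.54 CPM at E13.5. Lrp1, an endocytic receptor, was at 108 to 188 CPM in sorted mesenchyme and 0.307 to 1.77 CPM in sorted ECs, although ECs of the unsorted lungs had 35.5 and 19.2 CPM. The 6 immune genes summed to 645 and 339 CPM in those unsorted ECs, and the part of immune RNA in their Lrp1 was not tested. The heparan sulphate carrier Sdc2 was at 59.0 to 266 CPM in sorted mesenchyme and 0.932 to 2.65 CPM in sorted ECs. Its relative Sdc4 was at 27.7, 55.0, 117 and 162 CPM in mesenchyme from E13.5 to P8 and at 20.3, 26.0, 43.9 and 45.9 CPM in ECs. Sdc1 in ECs was lower at each later stage, from 56.6 CPM at E13.5 to 5.88 CPM at P8. Vcan, a proteoglycan of the matrix, was at 141 to 260 CPM in mesenchyme and 2.52 to 12.4 CPM in ECs.

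ECs carried other partners. The integrin subunit Itga6 was at 33.6, 75.7, 191 and 185 CPM in ECs from E13.5 to P8 and at 6.49 to 22.1 CPM in mesenchyme, and Itgb1 was at 501 to 712 CPM in ECs. Nucleolin (Ncl), a nucleolar protein that can stand at the cell surface, was at 646, 661, 384 and 391 CPM in ECs. The endothelial phosphatase Ptprb was at 362, 247, 738 and 789 CPM, while Ptprs went from 161 to 67.9 CPM. Lrp6, a Wnt co-receptor, was between 44.3 and 74.1 CPM in both cell types. From E13.5 to P8 in ECs, 2 of the 7 list members compared were higher by 2-fold or more (Itga6 and Ptprb) and 2 were lower (Sdc1 and Ptprs), with a median of 0.12 beside 0.13 for all genes, of which 19.6% were higher and 9.21% lower. In ECs of the whole lungs 0 of 6 differed by 2-fold between the labels, where 0.149% of genes were higher and 0.448% lower by that much.

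Retinoic acid genes were read because midkine was found as a gene induced by retinoic acid. Of 16 listed genes 8 reached 50 CPM. Crabp1, a binding protein of retinoic acid, was at 480.0, 192, 7.48 and 64.9 CPM in mesenchyme and at 82.2, 0.354, 0.0170 and 0.441 CPM in ECs from E13.5 to P8. Crabp2 was at 56.8, 59.4, 2.81 and 0 CPM in mesenchyme. Rbp4, a retinol-binding protein, was highest in mesenchyme at E18.5, at 118 CPM. Cyp26b1, which breaks retinoic acid down, was at 47.7, 18.1, 98.6 and 59.3 CPM in ECs and at most 3.74 CPM in sorted mesenchyme. The receptor Rara and the reductase Dhrs3 were at 24.8 to 69.9 and 38.2 to 82.2 CPM in ECs, and Tgm2, a transglutaminase, at 30.6 to 74.2 CPM. From E13.5 to E15.5 in ECs, where Mdk was lower by 1.03, 1 of the 2 members compared was lower by 2-fold or more, beside 2.11% of all genes compared. From E13.5 to P8, 2 of 5 were higher and 1 was lower, beside 19.6% and 9.21% of all genes.

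The genes most like each ligand were looked for by Pearson correlation of log2(CPM + 1) over 24 profiles, 12 named populations in each of the 2 whole-lung libraries, among 5912 genes. The profiles share libraries and depth, and they are not independent. The cluster with the highest Ptn, led by Upk3b and Dcn, is unnamed and was not among the 12. Neural crest or glia-like cells and the unnamed cluster led by Igfbp2 and Dner were not among them either. For Ptn the 5 genes were 6030408B16Rik (r = 0.90), Clec3b (0.89), Vcam1 (0.86), Vegfd (0.85) and Pcolce2 (0.84). For Mdk they were Sox5 (0.96), Rab34 (0.94), Reck (0.94), Tmem178 (0.93) and Htra1 (0.92). Ptn and Mdk had r = 0.70 with each other. Over 38 profiles of all clusters, a set chosen after the values were seen, that r was 0.51, the gene most like Ptn was Lgi2 (0.91) and the one most like Mdk was Podxl2 (0.92).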

How the data were processed

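The authors aligned 10x 3′ v3 reads to mm10 and counted UMIs with Cell Ranger (3.1 in the methods; 3.0.2 and 3.1.0 in the file headers), and deposited raw counts per gene and cell for the 6 libraries. For the whole lungs they also deposited expected counts adjusted with SoupX, which were used only where named. Cells with at least 700 genes and 0.5% to 10% mitochondrial counts were kept, and the gates were applied to the raw counts. Levels are summed counts of a gate or cluster scaled to 1000000 UMIs (CPM), with exact Poisson intervals, and shares have exact binomial (Clopper-Pearson) intervals. Ratios are of CPM + 0.5, with exact conditional intervals computed without that pseudocount. A UMI tags 1 transcript whatever its length, so no length scaling was made. With 1 library per condition no test was run, and cells were not treated as replicates. Clusters came from igraph 0.11.9 on 3000 variable genes (resolution 0.8) and were named from listed markers with thresholds set after the clusters were seen. The members, gene lists and populations were chosen with earlier results of these data known. Named genes were list members of at least 50 CPM and the 5 most alike genes per ligand. Analyses used Python 3.11.15 and scipy 1.17.1. The fold calls were tested on simulated data. That check covered only ECs, E15.5 over E13.5, with counting error and no differences between libraries. Results for some listed items are not reported here.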

Additional observations from a re-analysis of the deposited data

Results flagged for a closer look

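Results are given here where the same contrast went in opposite directions in 2 kinds of cell or library. None of these differences was tested, since each library is 1 sample. From E18.5 to P8, Ptn was higher in ECs by 1.95 on the log2 scale and lower in mesenchymal cells by a log2 value of -5.11, the latter from 6 UMIs in 59 cells. Mdk went the opposite way over the same step, with -3.04 in ECs and 1.61 in mesenchymal cells. Cycling over other mesenchymal cells gave Ptn log2 differences of -0.98, -1.01 and -0.82 in the sorted libraries of E13.5, E15.5 and E18.5, and of 1.00 and 0.34 in the whole-lung libraries labelled control and null.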

How the results depend on the processing

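For 14 results, all log2 ratios, 90 alternative values were computed: 54 stayed within the counting interval, 36 moved beyond it with the same direction, and 5 moved by more than 1.5 times. The Mdk difference in whole-lung mesenchyme, -0.0051, changed sign within its counting interval, to 0.010 with the stricter gate and 0.0069 with no cell filter, and 0 other values changed sign. The order of values below is EC E15.5 over E13.5, EC E18.5 over E15.5, EC P8 over E18.5, mesenchymal E15.5 over E13.5, EC over mesenchymal at E13.5 and E15.5, and whole-lung mesenchyme, as far as each moved. With stricter gates Ptn gave -3.05, -1.86, (mesenchymal) -0.71, -5.03, -7.37 and 1.77, and Mdk -0.51 for the mesenchymal step and -1.83 for EC over mesenchymal at E15.5. With means of per-cell CPM, Ptn gave -3.20 and -2.51 in ECs, -0.60 in mesenchyme, -4.53 and -7.14 for EC over mesenchymal, and 1.76 in whole lungs, and Mdk -2.04 and -2.93 in ECs, -0.51 in mesenchyme, -1.73 for EC over mesenchymal at E15.5 and -0.039 in whole lungs. A pseudocount of 5 CPM gave Ptn -3.25, -1.22 and 1.21 in ECs, -6.82 for EC over mesenchymal at E15.5 and 1.81 in whole lungs, and Mdk -1.84 and -2.58 in ECs. Leaving the 50 most abundant genes out of the total gave -0.59 for the Ptn mesenchymal step, and for Mdk -1.95 (EC E18.5 over E15.5), -0.50 and -1.76. Without the cell with the most Ptn UMIs, an alternative added after seeing the data, Ptn gave -2.98 and -4.77. In whole lungs Ptn was 1.44 with no cell filter and 1.60 with SoupX values, and Mdk -0.19 with SoupX values and -0.049 over clusters classed as mesenchymal. Causes of these moves were not tested beyond what each alternative changes. Scrublet called under 0.5% of cells at E13.5, E18.5 and P8, so it gave no usable values there. No paired analysis was possible because each group had 1 library. The 161 ECs at E13.5 and the 59 mesenchymal cells at P8 limit the precision at those stages.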
